A study of Mus musculus with 12 samples.

Results

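Translation initiation factors are the proteins that bring a ribosome carrying the initiator tRNA to the start codon of an mRNA. The mRNAs described here were the rows of the deposited count table whose Ensembl ID maps to a mouse symbol beginning with Eif1, Eif2, Eif3, Eif4, Eif5 or Eif6. The genes Eif4ebp1, Eif4ebp2, Eif4ebp3 and Eif4enif1 and the Eif2ak kinases, which act on initiation factors and are not factors themselves, were left out. This rule gave 46 of the 14675 gene IDs of the table, without use of any measured value.

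RNA was sequenced from dorsal root ganglion (DRG) material of adult RPL22HA+/+;Advillin-Cre+ mice, in which Cre recombinase under the sensory neuron promoter Advillin puts an HA tag on the ribosomal protein RPL22. The 4 groups were IP RNA (pulled down with an anti-HA antibody, so RNA bound to tagged ribosomes) after AAV-shGpr151 with AAV-e5'UTR, IP RNA after AAV-shGpr151 alone, and the total RNA (input) that belongs to each. They are called IP with e5UTR, IP shGpr151, input with e5UTR and input shGpr151 below, and each had 3 deposited columns. All 4 groups carried the hairpin RNA against Gpr151, and no group without it was analysed here. What the e5'UTR insert holds is not stated. The study's design text speaks of neurons put in culture after a preconditioning injury of the sciatic nerve, the protocol in the labels of DRGs lysed fresh, and which of them was sequenced cannot be told apart. Pooling of animals is not stated.

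In textbook outline, eIF1, eIF1A, eIF3 and eIF5 sit on the small ribosomal subunit, and eIF2 delivers the initiator tRNA to it in a GTP-bound form that the exchange factor eIF2B restores after each round. The cap-binding complex eIF4F, made of the cap-binding protein eIF4E, the helicase eIF4A and the scaffold eIF4G, brings in the mRNA, and eIF5B joins the large subunit. In sensory neurons local protein synthesis in the axon is known to follow nerve injury, and phosphorylation of eIF2 and of eIF4E is known to alter pain responses in mice.

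Many mRNAs of the translation machinery start with a run of pyrimidines, by which the kinase mTOR controls their use, so the start regions of the members on which the results turn were read from RefSeq (GRCm38.p6). Each line gives the 20 bases before and the first 10 bases after an annotated transcription start, on the strand of the gene. Capitals mark a run of at least 8 consecutive C or T anywhere in this 30-base window.
Eif3f (chr7:108934395-108934424, plus strand): gctcttctgttctaggCTCTCTCTCTTTCT
Eif2b5 (chr16:20498797-20498826, plus strand): gcaTTCCTTCCTCTTTCTCTCCCTgcaact
Eif2s3x (chrX:94212642-94212671, minus strand): ggcggctgccgagcaTTTTCCTTTTCTCTC
Eif2s3y (chrY:1010575-1010604, plus strand): cgacagcggaggccacagccaCTTCCTTCT
Eif1b (chr9:120492586-120492615, plus strand): tggcggcggcgcgcggggctaaatacgcgg
Eif1 (chr11:100319929-100319958, plus strand): gcagcgcgctggcgtcacaggggcggctat
The first 4 of these windows held such a run and those of Eif1b and Eif1 did not. Of 37 members with an annotated start that could be shown, 7 had a run in at least 1 window. By start, 7 of the members' 46 starts (15.2%) had one, against 12.6% of all 32851 starts in the table. The other 3 were Eif3l, Eif3m and Eif4e, the last at 1 of its 2 starts. The runs of Eif3m and Eif4e lay wholly before the annotated start, so outside the mRNA as annotated. A run is a description of these letters and was not tested as a control site.

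The columns held 1514948 to 1517685 estimated counts in IP with e5UTR, 1381220 to 1382261 in IP shGpr151, 975403 to 977366 in input with e5UTR and 984118 to 985277 in input shGpr151. The 3 columns of a group differed by little more than counting noise, with a median chi-square of 1.08 to 1.12 times the value from counting. They were therefore added up and counted as 1 sample, called a pool, so IP against input is 2 pools against 2. The p-values rest on how these pools vary. The 2 pools of a fraction are the 2 treatments, so the difference between treatments is part of this spread. The rest may be technical variation, and whether the pools came from separate animals is not stated. Levels are counts per 1000000 (CPM) of the TMM-scaled pool total, and an interval covers counting error only, since PCR copies without molecular identifiers are not independent molecules. Gpr151 itself had 34, 44 and 50 counts in IP with e5UTR, 37, 37 and 34 in IP shGpr151, 8, 9 and 12 in input with e5UTR and 7, 16 and 12 in input shGpr151. The sensory neuron markers summed to 9963 and 9456 CPM in the IP pools against 5181 and 5170 CPM in input. Of these markers 12 of 20 were higher in IP and 4 lower, while 33.5% of all tested genes were higher and 36.2% lower. Markers of Schwann cells (0 higher, 7 lower of 10; 497 and 532 CPM in IP against 1614 and 1605 CPM in input), fibroblasts (0 and 5 of 6; 147 and 135 CPM in IP against 732 and 758 CPM), satellite glia (1 and 2 of 4; 241 and 254 CPM in IP against 1102 and 1038 CPM) and macrophages (1 and 4 of 6; 34.5 and 33.4 CPM in IP against 123.3 and 125.6 CPM) summed lower in IP. Single markers went against these sums, with Glul of satellite glia (log2 ratio 1.94) and Csf1r of macrophages (1.31) called higher. Red blood cell markers were lower in IP in 4 of 4 (3.04 and 2.26 CPM in IP against 2318 and 2359 CPM in input), with Hbb-bt at 0 counts in both IP pools. In such bulk RNA fewer cells of a type and less RNA per cell cannot be told apart, and the part of these other cells in the results that follow was not tested.

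The comparison of IP with input asks which initiation factor mRNAs were held on the ribosomes of sensory neurons more or less than in the total RNA of the tissue. Initiation factor mRNAs as a group stood higher in IP. Of 43 tested members 25 were higher, against 33.5% of all 8085 tested genes, 4 were lower, against 36.2% of all genes, and 14 did not pass edgeR's quasi-likelihood test at an adjusted p of 0.05. As shares, 58.1% of the tested members were higher and 9.3% lower. A gene was tested when enough of its columns passed a filter on low counts, in whichever fraction. Eif1a, Eif2b2, Eif2b4, Eif2b5 and Eif4b, called higher, passed it only with their IP columns, and Eif5a2, called lower, only with its input columns. For these genes the filter thus used the fraction in which they were high. The median log2 ratio of IP to input was 0.52 over the members and 0.06 over all tested genes, and 13 members were at least 2-fold higher. Within each treatment, the 95% interval of the IP to input ratio lay above 1 in both treatments for 23 members (53.5%; 26.5% of all genes) and below 1 in both for 4 (9.3%; 33.8% of all genes). The sign of a small difference depends on the scaling here. By library totals in place of TMM all log2 ratios shift up by a median of 0.93, the members' median is 1.45 beside 0.99 over all genes, and 40 members are higher and 1 is lower, against 62.2% higher and 23.4% lower of all genes. Of the 25 higher calls 16 held under every setting run. Without either input pool 19 were left, with those of Eif2s2, Eif3a, Eif4a2, Eif4g2 and Eif4h ended in both cases (adjusted p from 0.055 to 0.25), Eif1b without input shGpr151 (0.083) and Eif1ad without input with e5UTR (0.16), each in the same direction. With DESeq2 on the pools 20 members were higher and 2 lower, with the higher calls of Eif4g1, Eif1ad, Eif3a, Eif4h and Eif4g2 (adjusted p = 0.061, 0.13, 0.19, 0.14 and 0.12) and the lower calls of Eif4g3 and Eif5a2 (adjusted p = 0.089 and 0.053) ended.

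**Figure D1:**
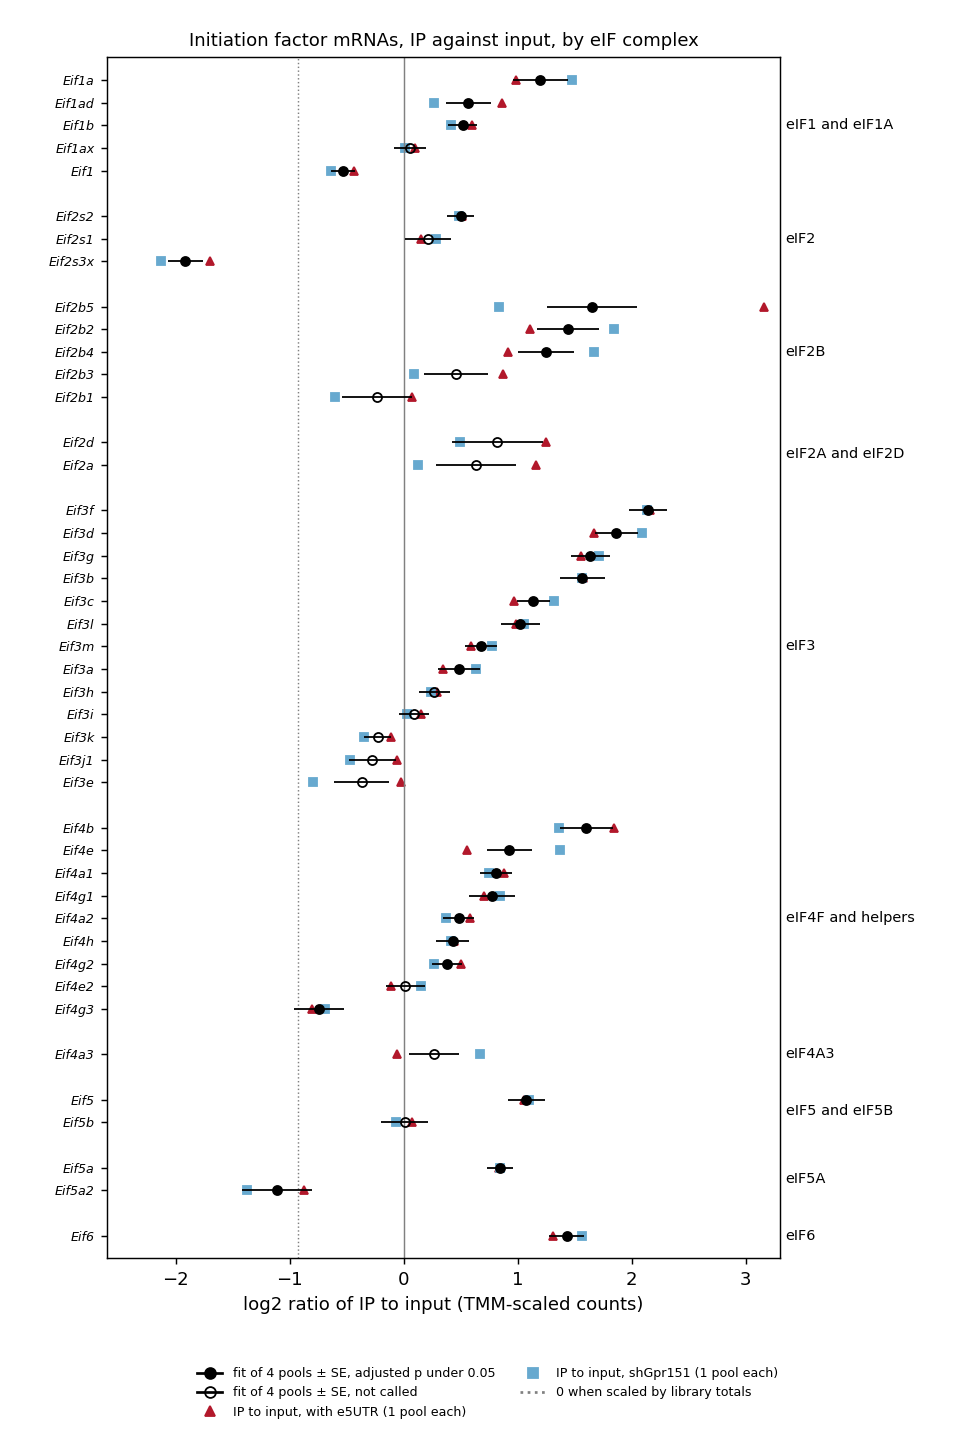
Log2 ratio of IP to input (x axis, TMM scaling) of the 43 tested initiation factor mRNAs, grouped by complex. Circles with bars of 1 standard error are edgeR's quasi-likelihood fit on 2 IP and 2 input pools (filled where the adjusted p was under 0.05), triangles and squares are the ratios of single pools with e5UTR and with shGpr151, and the dotted line is 0 on the scale of library totals. Values run from 2.14 for Eif3f to −1.91 for Eif2s3x, and on the scale of library totals all points lie about 0.93 further to the right, which puts the called Eif1 and Eif4g3 and the uncalled Eif2b1, Eif3e, Eif3j1 and Eif3k above 0.

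Of the 5 genes grouped by name under eIF1 and eIF1A, 3 were higher in IP, against 33.5% of all tested genes, and 1 was lower, against 36.2%. Their median log2 ratio was 0.52. The proteins eIF1 and eIF1A hold the small subunit open for the start codon, while Eif1ad is in the group by name only. Eif1a, which encodes eIF1A, a factor of the ribosomal A site, had 56, 46 and 55 counts in IP with e5UTR and 49, 52 and 34 in IP shGpr151, against 13, 10 and 4 in input with e5UTR and 6, 6 and 6 in input shGpr151. As pools this was 25.1 and 23.5 CPM in IP against 12.7 and 8.44 CPM in input, a log2 ratio of 1.198 ± 0.24 (SE, edgeR's quasi-likelihood test, adjusted p = 0.00060), and the columns of IP and input overlapped only through 1 low IP shGpr151 column. Its X-linked paralogue Eif1ax had 251, 262 and 233 counts in IP with e5UTR and 200, 183 and 200 in IP shGpr151, against 88, 74 and 75 in input with e5UTR and 73, 77 and 65 in input shGpr151. Its pools stood at 119.2 and 101.3 CPM in IP against 111.6 and 100.7 CPM in input, and the log2 ratio of 0.06 ± 0.14 did not pass the test (edgeR adjusted p = 0.73). Eif1ad, named for its eIF1A-like domain, was 1.48-fold higher in IP (edgeR adjusted p = 0.021), a call that also ended without column 2 of input with e5UTR, without column 3 of input shGpr151 and without the pool IP with e5UTR (edgeR adjusted p = 0.050, 0.072 and 0.074).

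Eif1 and Eif1b encode near-identical forms of eIF1, the factor that guards start codon selection, and their log2 ratios had opposite signs under TMM scaling. Eif1 had 2588, 2651 and 2642 counts in IP with e5UTR and 2143, 2193 and 2137 in IP shGpr151, against 1231, 1218 and 1176 in input with e5UTR and 1215, 1263 and 1247 in input shGpr151. Scaled to pools these were 1260.0 and 1125 CPM in IP against 1707 and 1745 CPM in input, with every IP column below every input column. The log2 ratio was −0.53 ± 0.11 (edgeR adjusted p = 0.00048) and 0.40 by library totals. Eif1b had 953, 871 and 925 counts in IP with e5UTR and 667, 671 and 715 in IP shGpr151, against 199, 209 and 207 in input with e5UTR and 175, 195 and 200 in input shGpr151. That made 439 and 357 CPM in IP against 289.5 and 267 CPM in input, a log2 ratio of 0.52 ± 0.13 (edgeR adjusted p = 0.0029), with every IP column above every input column. Retrocopies of Eif1 are annotated in the mouse genome but had no row in the table, and the rule for counting reads shared between copies is not known, which leaves the level of Eif1 uncertain.

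In eIF2 the mRNAs of the 3 subunits did not move together. Eif2s2, which encodes the beta subunit, had 666, 697 and 722 counts in IP with e5UTR and 623, 638 and 655 in IP shGpr151, against 164, 165 and 168 in input with e5UTR and 174, 159 and 174 in input shGpr151. Its pools were at 333 and 333 CPM in IP against 234 and 238 CPM in input, 1.41-fold higher (edgeR adjusted p = 0.0016), with no overlap of columns. Eif2s1, which encodes the alpha subunit that stress kinases phosphorylate, stood at a log2 ratio of 0.21 ± 0.20 and did not pass (edgeR adjusted p = 0.35). Eif2s3x, the X-linked gene of the GTP-binding gamma subunit, had 64, 84 and 59 counts in IP with e5UTR and 50, 54 and 62 in IP shGpr151, against 93, 68 and 67 in input with e5UTR and 92, 91 and 87 in input shGpr151. This gave 33.1 and 28.9 CPM in IP against 107 and 127 CPM in input. Eif2s3x was the lowest tested member, at a log2 ratio of −1.91 ± 0.15 (3.77-fold lower in IP, edgeR adjusted p = 5.3e-08). All 6 IP columns lay below all 6 input columns, and it was the single member lower under every setting run, at −0.98 by library totals. Its Y-linked copy Eif2s3y, under the filter on low counts, had 15, 5 and 7 counts in IP with e5UTR and 8, 9 and 14 in IP shGpr151, against 0, 1 and 2 in input with e5UTR and 0, 1 and 1 in input shGpr151. The ratio of IP to input for Eif2s3y was 3.06 with e5UTR (95% interval 0.940 to 15.7) and 5.75 with shGpr151 (1.46 to 49.6). Both ratios are above 1, unlike those of the X copy, but the interval with e5UTR includes 1. These near copies share reads in part, and the sex of the mice is not given in the labels.

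The alternative tRNA carriers eIF2A and eIF2D were thinly covered. Eif2d had 14, 13 and 15 counts in IP with e5UTR and 13, 18 and 7 in IP shGpr151, against 2, 4 and 0 in input with e5UTR and 1, 6 and 3 in input shGpr151, a log2 ratio of 0.82 ± 0.40 (edgeR adjusted p = 0.080). Eif2a had 25, 18 and 23 in IP with e5UTR and 15, 11 and 18 in IP shGpr151, against 3, 4 and 3 in input with e5UTR and 5, 7 and 3 in input shGpr151, a log2 ratio of 0.63 ± 0.35 (edgeR adjusted p = 0.12). Columns of IP and input overlapped for both, and neither passed the test.

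eIF2B is the exchange factor that restores eIF2 and the target of the stress response. It had 3 of 5 subunit mRNAs higher in IP, against 33.5% of all tested genes, with a median log2 ratio of 1.247. These 3, Eif2b2, Eif2b4 and Eif2b5, passed the filter on low counts only with their IP columns, the fraction in which they were high. Eif2b5, which encodes the catalytic epsilon subunit, had 21, 36 and 48 counts in IP with e5UTR and 33, 28 and 21 in IP shGpr151, against 3, 0 and 1 in input with e5UTR and 4, 9 and 4 in input shGpr151. Its pools were at 16.8 and 14.3 CPM in IP against 1.88 and 7.97 CPM in input, 3.14-fold higher (edgeR adjusted p = 0.0020), a call that ended without the pool IP with e5UTR (edgeR adjusted p = 0.051). The input pool with e5UTR, with 4 counts, is the low one, and the log2 ratio of 1.65 was 0.96 without it and 3.03 without input shGpr151. Eif2b2 (beta) was 2.71-fold and Eif2b4 (delta) 2.37-fold higher (edgeR adjusted p = 0.00034 and 0.00045), each with no overlap between the columns. Eif2b2 ran from 10.1 to 23.0 CPM over the 6 IP columns against 4.22 to 9.89 CPM over the 6 input columns, and Eif2b4 from 22.5 to 30.8 CPM against 4.22 to 16.9 CPM. Eif2b3 (gamma) stood at a log2 ratio of 0.46 ± 0.28 (edgeR adjusted p = 0.16). Eif2b1, the alpha subunit that stabilises the complex, had 24, 23 and 15 counts in IP with e5UTR and 16, 14 and 9 in IP shGpr151, against 10, 5 and 5 in input with e5UTR and 9, 8 and 5 in input shGpr151. Its log2 ratio was −0.23 ± 0.31 (edgeR adjusted p = 0.51) and its columns overlapped.

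eIF3, the large scaffold on the small subunit, had 8 of 13 tested subunit mRNAs higher in IP, 0 lower and 5 not called. Of all tested genes 33.5% were higher and 36.2% lower. The log2 ratios of the subunits ran from −0.37 to 2.14 with a median of 0.68. Eif3f, a subunit of the MPN-domain pair, was the highest of all members. It had 161, 178 and 187 counts in IP with e5UTR and 165, 150 and 146 in IP shGpr151, against 10, 19 and 11 in input with e5UTR and 11, 15 and 13 in input shGpr151. This was 84.1 and 80.1 CPM in IP against 18.8 and 18.3 CPM in input, 4.42-fold higher (log2 2.14 ± 0.17, edgeR adjusted p = 5.8e-08), and the lowest IP column exceeded the highest input column. Behind it came Eif3d (3.64-fold), whose human protein can itself bind the cap, then Eif3g (3.11-fold) and Eif3b (2.96-fold). Eif3c (2.20-fold), Eif3l (2.03-fold) and Eif3m (1.60-fold) were also higher under every setting run, with edgeR adjusted p from 8.4e-07 to 0.00060 for these 6 genes. Over the 6 columns of each fraction, Eif3d ran from 59.0 to 65.3 CPM in IP against 9.84 to 24.0 CPM in input, Eif3g from 70.4 to 89.2 CPM in IP against 14.1 to 38.1 CPM, and Eif3b from 44.6 to 68.3 CPM in IP against 14.1 to 29.5 CPM. Eif3c ran from 114 to 127 CPM in IP against 39.4 to 64.9 CPM in input, Eif3l from 44.6 to 61.0 CPM in IP against 21.2 to 31.1 CPM, and Eif3m from 85.0 to 92.3 CPM in IP against 42.2 to 69.3 CPM. None of these 6 genes, which were picked by their calls, had an IP column at or below an input column. This adds no further support, since the columns of a group count as 1 sample, and the share among all genes was not counted. Eif3a, the largest subunit, was 1.40-fold higher (edgeR adjusted p = 0.028), and not past the threshold without column 3 of IP with e5UTR, column 1 of input shGpr151 or the pool IP shGpr151 (edgeR adjusted p = 0.059, 0.056 and 0.073).

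The other eIF3 subunit mRNAs did not pass the test. Eif3h, the second MPN-domain subunit, stood at 0.27 ± 0.13 and Eif3i at 0.09 ± 0.13 on the log2 scale (edgeR adjusted p = 0.088 and 0.54). Eif3k was at −0.23 ± 0.12 and Eif3j1, which encodes the loosely attached subunit, at −0.27 ± 0.21 (edgeR adjusted p = 0.11 and 0.25). Eif3e, the lowest, had 46, 51 and 59 counts in IP with e5UTR and 24, 40 and 26 in IP shGpr151, against 18, 24 and 12 in input with e5UTR and 20, 21 and 17 in input shGpr151. Its log2 ratio was −0.37 ± 0.24 (edgeR adjusted p = 0.19), and by treatment the ratio of IP to input was 0.981 with e5UTR (0.715 to 1.36) and 0.576 with shGpr151 (0.409 to 0.815). By library totals the log2 ratios of these 5 genes were all above 0, from 0.56 for Eif3e to 1.201 for Eif3h. The second eIF3j gene, Eif3j2, was under the filter, with 0 counts in all 6 IP columns, against 6, 2 and 6 in input with e5UTR and 6, 6 and 0 in input shGpr151. With a floor of 3 counts per pool, Eif3j2 was at least 13.8-fold lower in IP with e5UTR and at least 10.8-fold lower in IP shGpr151. Eif3j1 and Eif3j2 are near copies and Eif3e has retrocopies, so these levels rest on how shared reads were divided.

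The cap-binding complex eIF4F and its helpers had 7 of 9 tested mRNAs higher in IP, against 33.5% of all tested genes, and 1 lower, against 36.2%. Their median log2 ratio was 0.48. Eif4b, which encodes a stimulator of the eIF4A helicase, had 79, 71 and 62 counts in IP with e5UTR and 56, 58 and 52 in IP shGpr151, against 6, 6 and 8 in input with e5UTR and 2, 15 and 7 in input shGpr151. Its pools were at 33.9 and 28.9 CPM in IP against 9.42 and 11.3 CPM in input, 3.03-fold higher (edgeR adjusted p = 3.1e-05), the highest of the complex, with no overlap of columns. Eif4h, which encodes the other helicase cofactor, was 1.35-fold higher (edgeR adjusted p = 0.017). Eif4e, the gene of the cap-binding protein, had 108, 113 and 99 counts in IP with e5UTR and 100, 128 and 100 in IP shGpr151, against 22, 24 and 28 in input with e5UTR and 17, 16 and 14 in input shGpr151. At 51.1 and 57.0 CPM in IP against 34.8 and 22.0 CPM in input it was 1.90-fold higher (edgeR adjusted p = 0.00092), again with no overlap. Eif4e2 encodes a cap-binding relative that represses translation. It had 77, 86 and 93 counts in IP with e5UTR and 78, 79 and 71 in IP shGpr151, against 29, 36 and 29 in input with e5UTR and 24, 23 and 29 in input shGpr151, a log2 ratio of 0.01 ± 0.17 (edgeR adjusted p = 0.95). The third cap-binding gene, Eif4e3, was under the filter, with 4, 3 and 5 counts in IP with e5UTR and 8, 2 and 7 in IP shGpr151, against 1, 7 and 3 in input with e5UTR and 2, 5 and 7 in input shGpr151.

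Both helicase genes of eIF4F were higher in IP. Eif4a1 had 209, 195 and 165 counts in IP with e5UTR and 165, 185 and 180 in IP shGpr151, against 40, 31 and 34 in input with e5UTR and 47, 35 and 35 in input shGpr151, and was 1.76-fold higher (edgeR adjusted p = 0.00015). Eif4a2 had 310, 321 and 296 counts in IP with e5UTR and 252, 224 and 242 in IP shGpr151, against 65, 78 and 67 in input with e5UTR and 64, 69 and 73 in input shGpr151, and was 1.40-fold higher (edgeR adjusted p = 0.0065). Scaled to library size, the IP columns of each gene lay above all its input columns. Eif4a3, whose protein belongs to the exon junction complex on spliced mRNA, stood at 0.27 ± 0.22 on the log2 scale and did not pass (edgeR adjusted p = 0.29). Its counts were 58, 58 and 59 in IP with e5UTR and 63, 48 and 60 in IP shGpr151, against 15, 18 and 29 in input with e5UTR and 15, 12 and 13 in input shGpr151.

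The scaffold genes differed in direction under TMM scaling. Eif4g1, the main eIF4G, had 56, 60 and 57 counts in IP with e5UTR and 45, 59 and 56 in IP shGpr151, against 7, 12 and 17 in input with e5UTR and 12, 9 and 12 in input shGpr151, and was 1.71-fold higher (edgeR adjusted p = 0.0041; DESeq2 adjusted p = 0.061). Eif4g2, a relative that lacks the eIF4E-binding site, had 263, 285 and 290 counts in IP with e5UTR and 212, 247 and 252 in IP shGpr151, against 71, 70 and 60 in input with e5UTR and 79, 75 and 66 in input shGpr151, and was 1.30-fold higher (edgeR adjusted p = 0.019). Eif4g3 had 25, 17 and 29 counts in IP with e5UTR and 23, 20 and 24 in IP shGpr151, against 11, 15 and 16 in input with e5UTR and 9, 15 and 16 in input shGpr151. That is 11.4 and 11.7 CPM in IP against 19.8 and 18.7 CPM in input, 1.67-fold lower in IP (log2 −0.74 ± 0.22, edgeR adjusted p = 0.0089), while by library totals the log2 ratio was 0.19. The lower call of Eif4g3 also ended without the pool input with e5UTR (edgeR adjusted p = 0.059) and with DESeq2 (adjusted p = 0.089), and columns of IP and input overlapped for all 3 scaffold genes.

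**Figure D2:**
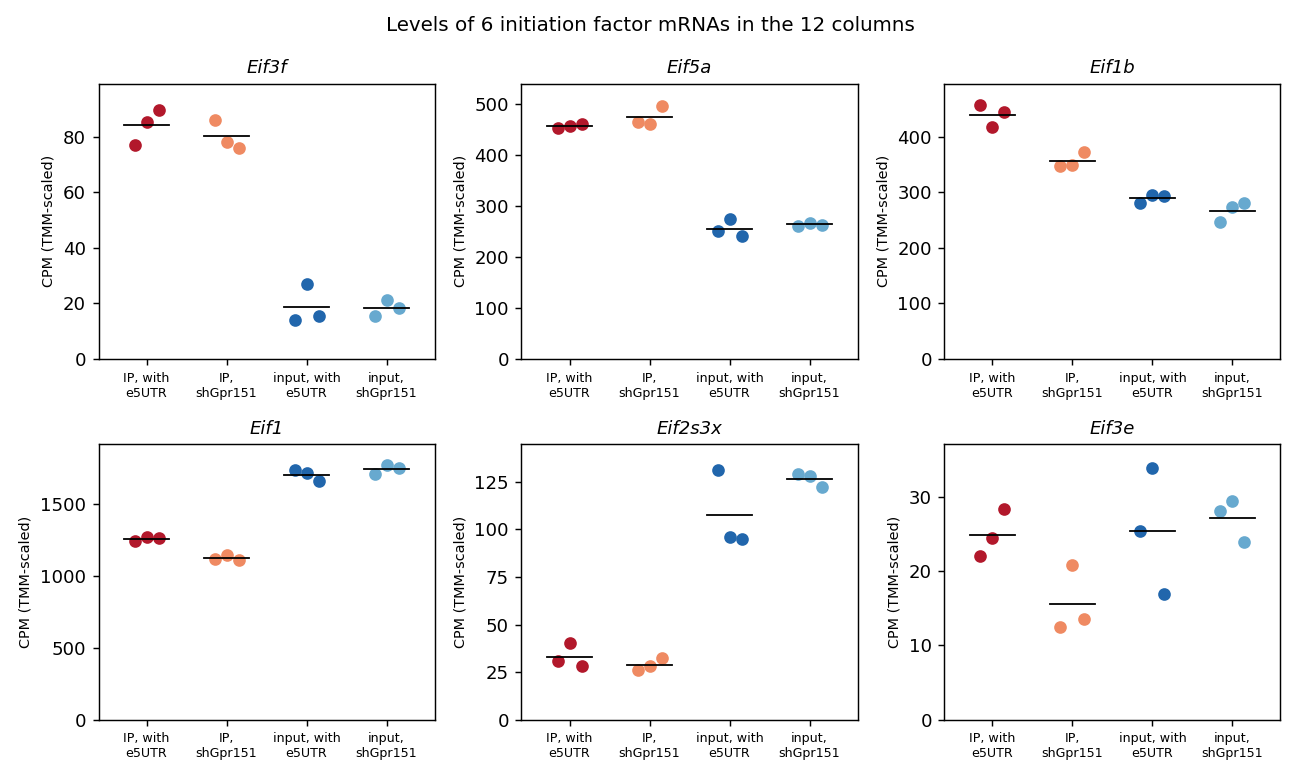
Level in CPM of the TMM-scaled library size (y axes, each with its own range from 0) of Eif3f, Eif5a, Eif1b, Eif1, Eif2s3x and Eif3e in the 12 deposited columns, with IP with e5UTR, IP shGpr151, input with e5UTR and input shGpr151 from left to right and a line at the mean of the 3 columns. Eif3f stood at 84.1 and 80.1 CPM in the IP pools against 18.8 and 18.3 CPM in input, and Eif2s3x at 33.1 and 28.9 CPM in IP against 107 and 127 CPM in input; Eif1 is below its input level with this scaling and above it by library totals.

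Among the late-acting factors, Eif5, the activator of GTP hydrolysis on eIF2, had 141, 150 and 124 counts in IP with e5UTR and 151, 145 and 148 in IP shGpr151, against 22, 24 and 22 in input with e5UTR and 28, 23 and 26 in input shGpr151. It was at 66.3 and 77.2 CPM in IP against 32.0 and 36.1 CPM in input, 2.11-fold higher with no overlap of columns (edgeR adjusted p = 4.8e-05). Eif5b, which encodes the subunit-joining GTPase, had 44, 48 and 54 counts in IP with e5UTR and 35, 35 and 43 in IP shGpr151, against 18, 12 and 17 in input with e5UTR and 17, 10 and 17 in input shGpr151, a log2 ratio of 0.01 ± 0.21 (edgeR adjusted p = 0.97). Eif6, whose protein keeps the large subunit from joining too early and serves in its assembly, had 169, 195 and 168 counts in IP with e5UTR and 189, 165 and 163 in IP shGpr151, against 28, 21 and 24 in input with e5UTR and 17, 22 and 26 in input shGpr151. Eif6 was 2.70-fold higher (85.0 and 89.9 CPM in IP against 34.4 and 30.5 CPM in input, edgeR adjusted p = 1.6e-06), and every IP column lay above every input column.

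The eIF5A genes, which encode the hypusine-bearing factor that helps ribosomes past stalling sequences, moved apart. Eif5a had 943, 953 and 958 counts in IP with e5UTR and 890, 881 and 952 in IP shGpr151, against 178, 194 and 170 in input with e5UTR and 186, 190 and 187 in input shGpr151. Its pools stood at 456 and 473 CPM in IP against 255 and 264 CPM in input, 1.79-fold higher with no overlap (edgeR adjusted p = 1.7e-05). Its paralogue Eif5a2 had 12, 8 and 17 counts in IP with e5UTR and 6, 13 and 8 in IP shGpr151, against 4, 12 and 7 in input with e5UTR and 4, 10 and 12 in input shGpr151. Eif5a2 was 2.16-fold lower in IP (log2 −1.11 ± 0.31, edgeR adjusted p = 0.0055). The call ended with DESeq2 (adjusted p = 0.053) and by library totals, where its log2 ratio was −0.18, and columns of IP and input overlapped. Gene models that overlap Eif5a (Gps2), Eif5a2 (1700112D23Rik, Gm32950), Eif1ad (Banf1), Eif2a (Serp1), Eif2d (Rassf5), Eif3m (Ccdc73), Eif4a2 (Rfc4) and Eif4e3 (Gpr27) were also in the table, and the use of strand in counting is not stated.

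The share of each paralogue within its family does not depend on how libraries are scaled. Of the counts of Eif1b and Eif1 together, Eif1b held 25.9% in IP with e5UTR (exact Clopper-Pearson 95% interval 25.03 to 26.70) and 24.1% in IP shGpr151 (23.17 to 25), against 14.5% in input with e5UTR (13.5 to 15.6) and 13.3% in input shGpr151 (12.3 to 14.3). Eif1a held 17.4% and 18.8% of Eif1a and Eif1ax in the IP pools, against 10.2% and 7.73% in input. Within eIF2, Eif2s3x held 8.33% and 7.36% of the counts of all subunit genes in the IP pools, against 29.3% and 32.8% in input. In each of these 3 families the intervals of the IP pools lay apart from those of the input pools. Eif2s3y held 11.5% (7.74 to 16.3) and 15.7% (10.95 to 21.6) of the X and Y copies in the IP pools, against 1.30% (0.269 to 3.75) and 0.735% (0.0892 to 2.63) in input. Eif4e held 55.6% and 59.0% of Eif4e and Eif4e2 in the IP pools, against 44.1% and 38.2% in input, where the intervals of the pools with e5UTR touch (51.4 to 59.7 in IP, 36.4 to 51.9 in input).

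Eif5a held 98.72% and 99.02% of Eif5a and Eif5a2 in the IP pools, against 95.9% and 95.6% in input. Eif4g3 held 6.56% and 7.14% of the eIF4G counts in the IP pools, against 15.1% and 13.7% in input, and Eif4g1 held 16.0% and 17.1% in the IP pools, against 12.9% and 11.3% in input. The intervals of IP and input lay apart for Eif5a and Eif4g3 and overlapped within each treatment for Eif4g1. Eif4a1 held 38.0% and 42.5% of Eif4a1 and Eif4a2 in the IP pools, against 33.3% and 36.2% in input, with intervals that overlapped within each treatment. Between the pools with and without e5UTR of 1 fraction the intervals overlapped in every family except Eif1b in IP, where they lay just apart.

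**Figure D3:**
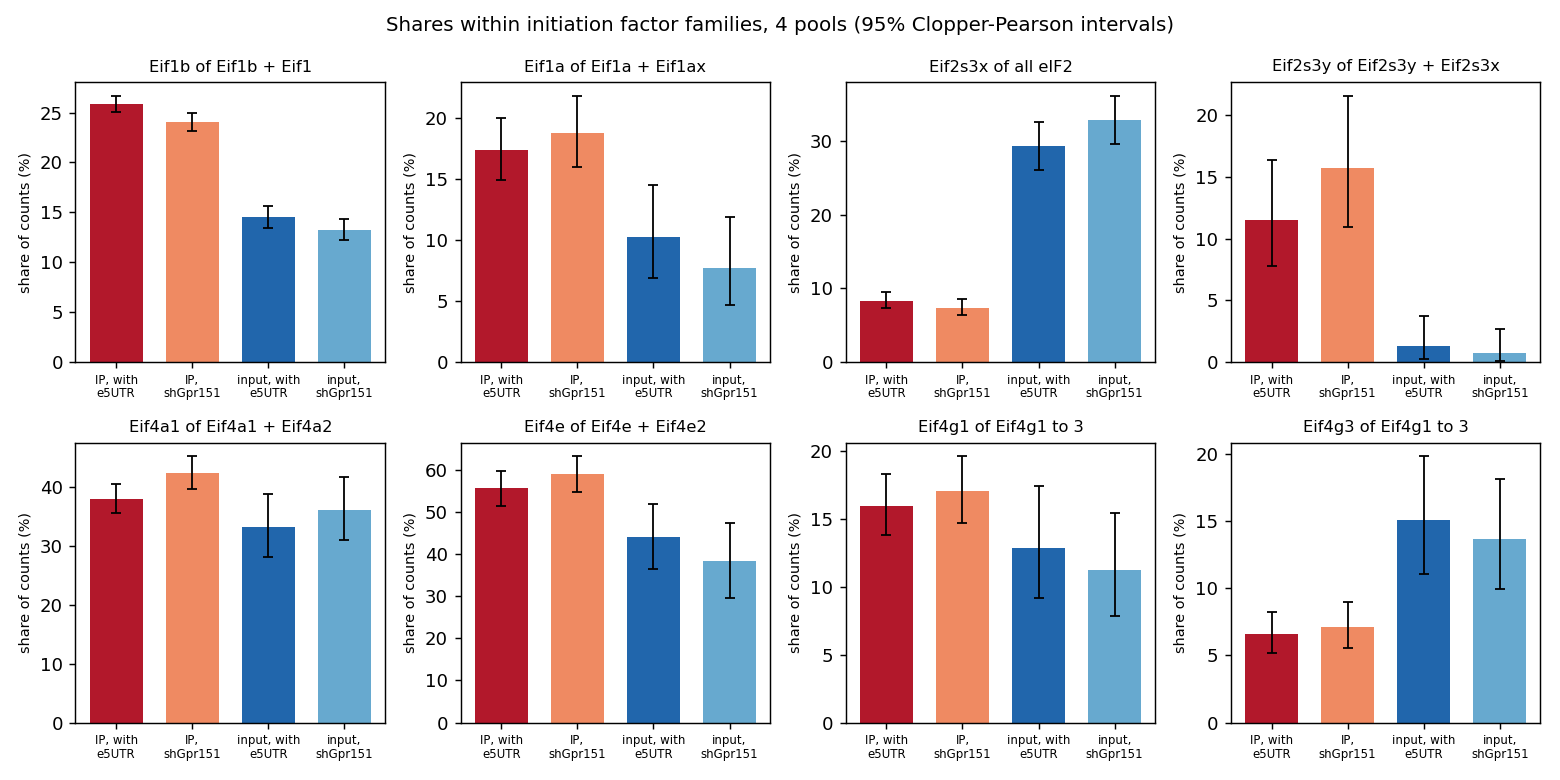
Share of family counts in percent (y axis) held by 1 gene in each of the 4 pools as bars, with exact Clopper-Pearson 95% intervals as whiskers. Eif1b held 25.9% and 24.1% in the IP pools against 14.5% and 13.3% in input, whereas the intervals of Eif4a1 overlapped within each treatment.

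The regulators of initiation were read beside the factors from a list of 48 genes. Of 46 with a row, 32 were tested, and 10 of these (31.2%) were higher in IP, against 33.5% of all genes, 5 (15.6%) were lower, against 36.2% of all genes, and 17 did not pass. Their median log2 ratio was 0.31. By role, 1 of 4 genes listed with the eIF2 kinases and 1 of 3 eIF2 phosphatase genes were higher, and 0 lower. Impact, counted among these 4, is not itself an eIF2 kinase. Of mTOR and MNK signalling 4 of 5 tested genes were higher and 0 lower, and 5 of its 10 genes were tested. Of the 4E-binding proteins 0 of 4 were higher and 2 were lower. The higher-called Eif2ak1, Mknk2, Mlst8, Mtor and Tsc2 passed the filter on low counts only with their IP columns, the fraction in which they were high. By library totals 27 regulators were higher and 2 lower, against 62.2% and 23.4% of all genes.

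The highest regulator was Eif2ak1, the heme-regulated eIF2 kinase. It had 86, 82 and 102 counts in IP with e5UTR and 91, 84 and 125 in IP shGpr151, against 6, 2 and 5 in input with e5UTR and 4, 5 and 3 in input shGpr151. Its pools stood at 43.2 and 52.2 CPM in IP against 6.12 and 5.62 CPM in input, a log2 ratio of 3.01 ± 0.25 (8.07-fold, edgeR adjusted p = 9.8e-08), with no overlap of columns. Then came Mknk2, a kinase of eIF4E, with 13, 24 and 25 counts in IP with e5UTR and 18, 11 and 18 in IP shGpr151, against 3, 0 and 2 in input with e5UTR and 1, 2 and 1 in input shGpr151 (log2 ratio 2.08 ± 0.42). Mlst8, a subunit of the mTOR complexes, had 21, 16 and 11 counts in IP with e5UTR and 19, 19 and 14 in IP shGpr151, against 4, 1 and 1 in input with e5UTR and 1, 1 and 3 in input shGpr151 (log2 ratio 1.68 ± 0.40). Columns of IP and input stood apart for Mknk2 and overlapped for Mlst8 through 1 input column with e5UTR. Mtor itself had 17, 24 and 11 counts in IP with e5UTR and 18, 15 and 13 in IP shGpr151, against 3, 1 and 5 in input with e5UTR and 0, 2 and 0 in input shGpr151, a log2 ratio of 1.65 ± 0.48 (edgeR adjusted p = 0.0072) with columns that overlapped. The call of Mtor ended without the pool IP with e5UTR, IP shGpr151 or input shGpr151 (edgeR adjusted p = 0.051, 0.056 and 0.12) and with DESeq2 (adjusted p = 0.052), and its log2 ratio was 0.94 without input shGpr151, 3.09 without input with e5UTR and 2.25 without column 3 of input with e5UTR.

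Lowest was Abce1, the ribosome recycling ATPase. It had 148, 159 and 154 counts in IP with e5UTR and 171, 182 and 181 in IP shGpr151, against 276, 298 and 303 in input with e5UTR and 305, 286 and 280 in input shGpr151. This was 73.7 and 92.8 CPM in IP against 413 and 408 CPM in input, a log2 ratio of −2.30 ± 0.14 (4.93-fold lower in IP, edgeR adjusted p = 3.1e-09), with no overlap of columns. Next was Paip2b, which restrains the poly(A)-binding protein, with 85, 94 and 78 counts in IP with e5UTR and 105, 102 and 116 in IP shGpr151, against 117, 111 and 108 in input with e5UTR and 87, 83 and 98 in input shGpr151 (log2 ratio −1.55 ± 0.17). Larp4, which binds poly(A) tails, had 19, 21 and 17 counts in IP with e5UTR and 11, 11 and 14 in IP shGpr151, against 12, 13 and 11 in input with e5UTR and 19, 13 and 9 in input shGpr151 (log2 ratio −1.23 ± 0.27). Scaled to library size, Paip2b and Larp4 had every IP column below every input column. Gigyf2, a partner of the repressor eIF4E2, had 11, 11 and 17 counts in IP with e5UTR and 10, 17 and 22 in IP shGpr151, against 12, 9 and 16 in input with e5UTR and 9, 8 and 16 in input shGpr151 (log2 ratio −1.16 ± 0.27), and its columns overlapped. Eif4ebp1, the mTOR-controlled inhibitor of eIF4E, was 1.72-fold lower in IP (edgeR adjusted p = 0.0022). By library totals the lower calls of Abce1 (log2 ratio −1.37) and Paip2b (−0.61, edgeR adjusted p = 0.0048) held, while those of Larp4 (−0.30, adjusted p = 0.31), Gigyf2 (−0.23, adjusted p = 0.44) and Eif4ebp1, which turned to 0.15 (adjusted p = 0.46), ended. Eif2ak1 overlaps Ankrd61 and Aimp2, and Abce1 overlaps Anapc10, in the RefSeq annotation.

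The comparison of e5UTR with shGpr151 alone asks whether AAV-e5'UTR altered these mRNAs in each fraction, and with 1 pool per group it has no replicate check. In IP 1 of 43 initiation factor mRNAs was past 1.5-fold, against 11.6% of all tested genes. The members' median interval reached 1.17-fold to either side of the ratio, against 1.35-fold over all genes. Members were thus measured with less counting error, and how far this sets their lower share was not tested. The ratios of IP with e5UTR to IP shGpr151 ran from 0.825 to 1.59, with a median log2 of 0.07 over the members and 0.00 over all genes. The single member past 1.5-fold was Eif3e, with 46, 51 and 59 counts with e5UTR and 24, 40 and 26 with shGpr151. Its ratio was 1.59 (exact binomial 95% interval 1.22 to 2.09) and its columns did not overlap. Its log2 ratio of 0.67 was under the 1.5-fold line without column 3 of IP with e5UTR (0.58) and without column 1 (0.54) or 3 (0.58) of IP shGpr151. In input its ratio was 0.935. In the IP columns the other members with an interval above 1 were Eif1 (1.12), Eif1b (1.23), Eif1ax (1.18), Eif1ad (1.26) and Eif4a2 (1.19), and those with an interval below 1 were Eif3b (0.825), Eif3g (0.854) and Eif5 (0.859), together 9 of 43, against 26.2% of all genes. These 8 genes were named after their values were seen. With each column taken as a sample, which compares these libraries and not the conditions, edgeR's quasi-likelihood test called 4 members, against 11% of all genes, namely Eif1b (adjusted p = 3.0e-05), Eif1 (5.6e-05), Eif3e (0.028) and Eif4a2 (0.030), all higher with e5UTR.

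In input 7 of 43 members were past 1.5-fold, against 15.7% of all genes, 5 of them higher (8.01% of all genes) and 2 lower (7.72%). For 3 of them the interval excluded 1, against 3.06% of all genes. Eif2b5 had 3, 0 and 1 counts with e5UTR and 4, 9 and 4 with shGpr151, a ratio of 0.236 (0.0579 to 0.725), or log2 −2.08, which became −3.52 without column 1 of input with e5UTR, −1.51 without its column 2 and −1.56 without column 2 of input shGpr151. Eif4e had 22, 24 and 28 counts with e5UTR and 17, 16 and 14 with shGpr151, a ratio of 1.58 (1.08 to 2.33, log2 0.66), with no overlap of columns. Without column 3 of input with e5UTR the log2 ratio of Eif4e was 0.55, under the 1.5-fold line. Eif4a3 had 15, 18 and 29 counts with e5UTR and 15, 12 and 13 with shGpr151, a ratio of 1.56 (1.03 to 2.38, log2 0.64). The log2 ratio was under the 1.5-fold line without its high column 3 of input with e5UTR (0.30) and without column 2 of input shGpr151 (0.58). In IP the same genes had ratios of 1.18 (Eif2b5), 0.897 (Eif4e) and 0.941 (Eif4a3). With each column taken as a sample, edgeR's quasi-likelihood test called 0 members in input, against 0.198% of all genes. Its unadjusted p was under 0.05 for 3 of 43 members. The share of all genes under that value was not counted, so this is not read as a result about the members. With a lower line, an increase of 25% or the inverse decrease with an interval that excludes 1, 3 members were past it in input, against 4.22% of all genes, and 2 in IP, against 16.8%. The members' median interval reached 1.48-fold to either side of the ratio in input and 1.17-fold in IP, against 1.63-fold and 1.35-fold over all genes.

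**Figure D4:**
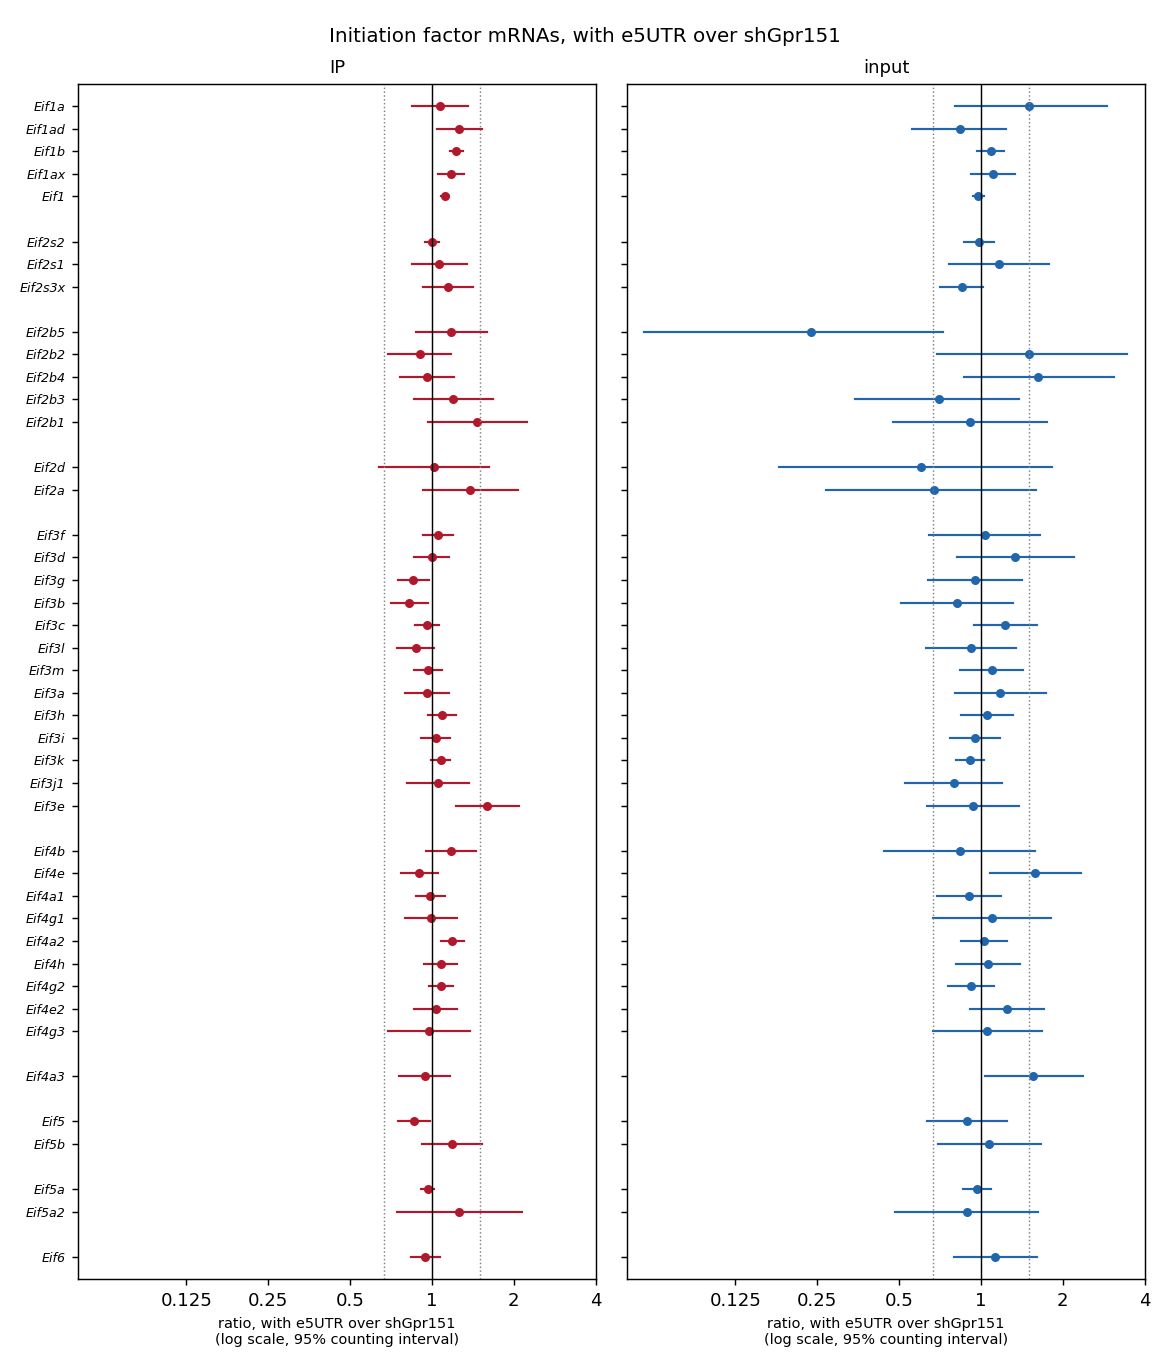
Ratio of the pool with e5UTR to the pool with shGpr151 alone (x axis, log scale) for the 43 tested initiation factor mRNAs in IP and in input, with exact binomial 95% intervals that cover counting error only. In IP the ratios lie between 0.825 and 1.59 with Eif3e the highest, and in input Eif2b5 stands at 0.236 with an interval of 0.0579 to 0.725.

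The ratio of IP to input itself differed by at least 1.5-fold between the treatments for 11 of 43 members, against 27% of all genes. With e5UTR 7 of them were higher (12.8% of all genes) and 4 lower (14.2%). The median log2 change was 0.03. Eif2b5 had an IP to input ratio of 8.91 with e5UTR (3.38 to 33.3), against 1.79 with shGpr151 (1.05 to 3.22), a gap set by the 4 and 17 counts of the input pools. Eif4e had a ratio of 1.47 with e5UTR (1.14 to 1.92), against 2.59 with shGpr151 (1.90 to 3.59). Eif1 had a ratio of 0.738 with e5UTR (0.710 to 0.768), against 0.645 with shGpr151 (0.619 to 0.671), and was the 1 member called for this change with each column taken as a sample, against 5.11% of all genes.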

How the data were processed

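The authors deposited estimated counts (whole numbers) for 14675 Ensembl genes in 12 columns, 1 per sample, whose names match the samples' labels. Library preparation used a nanopore cDNA-PCR kit, per the labels' protocols. Named in the submitters' processing notes are the tools minimap2 and Salmon and the builds GRCm39 and mm39, with no version or role; strand, annotation release and the handling of reads of several genes are not stated. Symbols were found for 13191 IDs (89.9%). The members, the lists and the tests were chosen with earlier results of these data known.

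From there the 3 columns of each group were summed to 1 pool of 2928926 to 4549204 counts. IP against input was tested with edgeR 4.0.16 (R 4.3.3), quasi-likelihood, TMM scaling and Benjamini-Hochberg (BH) adjustment over 8085 genes kept by filterByExpr (minimum count 10). What edgeR calls the biological coefficient of variation was 10.3%, a spread between pools that includes the difference between treatments. TMM factors were 1.38 and 1.39 for the IP pools and 0.725 and 0.722 for input. Comparisons between treatments, with 1 pool a group, used ratios of scaled pool counts with exact binomial intervals and a 1.5-fold line. Ratios against 0 counts used a floor of 3 counts per pool.

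Named with all columns were, per complex, the tested members with the highest and lowest IP to input ratio, 7 families of paralogues, the e5UTR members past 1.5-fold whose interval excludes 1, and the 4 highest and 4 lowest called regulators. Column values of untested members are given too. Alternatives were other scalings, filters, tools (DESeq2 1.42.0, limma-voom 3.58.1), columns as samples, blocks, and leaving out each column or pool. Those for the regulators, for each treatment and for family shares were added after seeing the data. The scripts were tested on simulated data.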

Additional observations from a re-analysis of the deposited data

Results flagged for a closer look

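Eif1 stood out in a test of the difference between treatments. Its log2 ratio of IP to input was higher with e5UTR than with shGpr151 alone by 0.20 ± 0.04 (SE) in edgeR's quasi-likelihood test with each column taken as a sample (interaction term, BH adjusted p = 0.0033), and by 0.20 from the pools. The change comes with 7881 counts in IP with e5UTR and 6473 in IP shGpr151, and 3625 counts in input with e5UTR and 3725 in input shGpr151. This test compares the libraries and not the conditions, and 1 of 43 tested members passed it, against 5.11% of all genes. In groups of 3 columns single outlying columns were not tested.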

How the results depend on the processing

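Of 1073 member values of IP against input under the alternatives, 999 kept direction and call, 20 gained a call, 28 lost it and 26 changed sign. By library totals 40 members were higher and 1 lower (25 and 4 by TMM) with a median log2 of 1.45, and Eif1 (0.40), Eif4g3 (0.19), Eif2b1 (0.69), Eif3e (0.56), Eif3j1 (0.66) and Eif3k (0.70) had log2 values above 0. By library totals 27 regulators were higher and 2 lower, Eif4ebp1 was at 0.15, and 37 members lay above 1 and 1 below 1 in both treatments. DESeq2 left 2 lower calls. The median was 0.63 with no filter, 0.66 without the pool IP shGpr151 and 0.62 without input shGpr151. Values near 0 changed sign: Eif5b was −0.0168 and Eif4e2 −0.0118 by relative log expression, −0.0180 and −0.0117 with DESeq2, Eif5b −0.0036 with limma-voom and −0.030 without IP with e5UTR, and Eif2b1 0.0069 without IP shGpr151. Without input shGpr151, Eif5b was −0.040, Eif4a3 −0.017, Eif4e2 −0.14 and Eif1ax −0.016. Leaving out single columns gave −0.083 to 0.074 for Eif5b, −0.029 to 0.093 for Eif4e2 and −1.75 to 0.021 for Eif2d under e5UTR in input.

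Leaving out single columns gave 2 to 4 members with an IP to input interval below 1 in both treatments, beside 33.8% of all genes with every column kept. For e5UTR it gave 1 to 3 members past the 1.5-fold line in IP and 3 to 8 in input, with a median log2 of −0.037 to 0.089 in input. With no filter 2 were past it in IP, and at the lower line of 25% with the interval excluding 1 there were 2 in IP and 3 in input. The change of ratio passed the line of 25% for 18, here with no rule on the interval, so this count cannot be set beside those in IP and input. The share of all genes past it was not counted. By relative log expression the medians were −0.0081 in IP and −0.047 for the change, and at a mean of at least 10 counts 0.038 in input. With each column a sample, edgeR called 4 members in IP, 0 in input and 1 for the change. With the replicate number as a block these counts were again 4, 0 and 1, and 26 members were higher and 5 lower in IP. Deviations of same-numbered columns from their group means had correlations from −0.06 to 0.04 over 18 pairs. Since the columns of a group differed by little more than counting noise, this check cannot tell whether columns were paired. The cause of each shift other than those that remove columns or genes was not tested. Input pools, with fewer counts, limit the ratios of members under about 50 counts.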
